A study of Sus scrofa with 32 samples.

Results

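The response of the glandular epithelium (GE) of the pig endometrium to early pregnancy was described from 7 libraries of single gilts. They were cut from frozen sections by laser capture microdissection (LCM) on Day 14, when the trophoblast begins to attach to the uterine surface. The members are the GE libraries of pregnant gilts PG139, PG39 and PG43 and of cyclic gilts CG128, CG40, CG42 and CG78, out of 31 libraries with counts in the series, and the 11905 of 30185 counted genes that passed the authors' filter in GE, which are called detectable. Pregnant gilts had been inseminated with German Landrace semen and non-pregnant gilts, called cyclic, with semen supernatant of the same boar, after all of them had been brought into oestrus before puberty with eCG and hCG. Pregnant tissue came from hyperemic zones after the conceptus had been taken off, so the site within the uterus and the state of pregnancy cannot be told apart. The GE library PG41 was not analysed here.

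Uterine glands secrete histotroph, the mixture of proteins, lipids, sugars and ions on which the pig conceptus feeds before a placenta forms. Estrogens and interleukin 1 beta from the elongating conceptus, and later interferons from its trophectoderm, act on an endometrium under progesterone. The glands of the pig are known for uteroferrin (ACP5), an iron-binding acid phosphatase, and for retinol-binding protein (RBP4), both made in large amounts under progesterone.

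Library totals lay between 3442913 and 4788094 counts, with 16881 to 17999 genes having at least 1 count. No difference between the groups was detected in either (exact permutation test over 35 splits, two-sided, p = 0.514 and p = 0.743, with 0.0286 as the smallest p it can give). Levels are CPM after TMM normalisation, in the order cyclic gilts CG128, CG40, CG42 and CG78, then pregnant gilts PG139, PG39 and PG43, and ± after a log2 fold change is its standard error. Summed epithelial markers (14 of 14 detectable, with EPCAM and CDH1 among them) lay between 2117 and 2554 CPM in every library. Gland transcription factor FOXA2 stood at 70.8 to 102 CPM, while luminal markers summed to at most 28.4 CPM in GE. All 12 fibroblast markers had a count, and their sum was 3370 to 8297 CPM in cyclic and 4285 to 7392 CPM in pregnant GE (exact permutation p = 0.857). On a joint scale of all 31 libraries this sum averaged 5467 CPM in cyclic GE and 81712 CPM in cyclic stroma (S).

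A library that stood apart was cyclic gilt CG128. Its log2 CPM correlated at 0.864 to 0.894 with the other cyclic GE libraries, which correlated at up to 0.953 with each other, and 3.72% of detectable genes had this gilt isolated from the other cyclic gilts against 0.916% to 1.07% for the others. ACP5 was at 15.1, 2191, 1687 and 2622 CPM in cyclic and 7222, 4777 and 6447 CPM in pregnant GE. RBP4 was at 11.7, 472, 437 and 742 CPM in cyclic and 2032, 3041 and 4154 CPM in pregnant GE. In gilt CG128 both gland secretory genes were far below the level in the other cyclic gilts, whereas the water channel AQP3 was at 1632 CPM there and at 146 to 262 CPM in the others. Some medians and fold changes are given with and without this gilt, and others with all libraries only.

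Of 11905 genes, 89 (0.748%) were called differentially expressed (DEGs), 61 upregulated and 28 downregulated in pregnant GE. A DEG here has an unadjusted p of at most 0.000328 in edgeR's quasi-likelihood test, the largest p called in luminal epithelium (LE) at a false discovery rate of 1%. Adjusted over GE itself, the DEGs had values of 0.0276 to 0.0434. The groups did not overlap in CPM for any of the 89, as for 23.0% of all detectable genes. Median absolute log2 fold change of the DEGs was 1.72, and the median over all genes was -0.01. Every one of the 89 passed in the robust GLM of edgeR too, which called 499 genes higher (4.19%) and 294 lower (2.47%), and in DESeq2, with 445 higher (3.74%) and 346 lower (2.91%). Both tests used the same counts with looser p limits, 0.00114 and 0.00112, so this overlap is no independent support. At an adjusted p under 0.05 within GE there were 221 genes (1.86%), 1.16% higher and 0.697% lower.

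**Figure D1:**
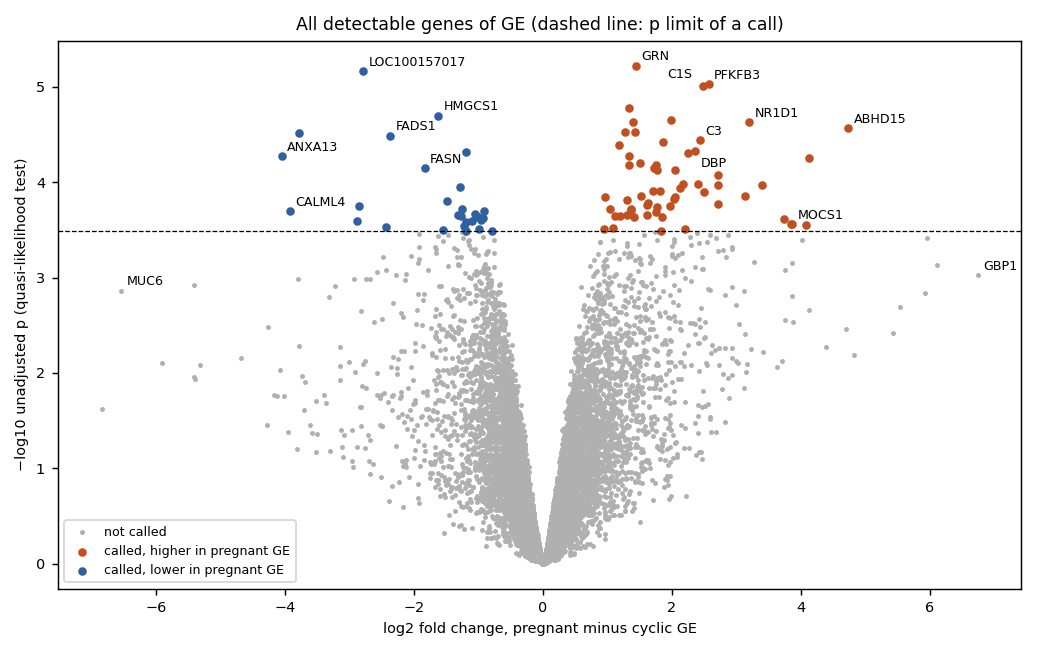
Each point is a detectable gene of GE, with its log2 fold change (pregnant minus cyclic) on the x axis and -log10 of its unadjusted p on the y axis. The 61 DEGs higher and 28 DEGs lower in pregnant GE lie above the dashed p limit of 0.000328, while GBP1 and MUC6, with the widest fold changes of the labelled genes, lie under it.

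How far a call rests on a single gilt was checked by leaving out each library. Of the 89 DEGs, 60 were called again when CG128 was omitted, 45 for CG40, 32 for CG42, 41 for CG78, 32 for PG139, and 29 each for PG39 and PG43. Called under every such omission were 17 genes, among them ABHD15, NR1D1, PFKFB3, C1S, C3, GRN, ENTPD5, GNPTAB, ZFP36L2, FBLN1, ARID5A, KLHL21, HMGCS1, FADS1, LOC110255465 and LOC100157017. None of the 89 changed direction in these fits. The count of DEGs itself was 110 without CG128, 38 without CG42, 43 without PG139, 41 without PG39 and 43 without PG43, and 67 or 69 without the other cyclic gilts.

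Among the 15 DEGs with the widest upward change were enzymes, complement and kinin factors and a clock gene. ABHD15 (chr12:45752848-45761850), which encodes an alpha/beta hydrolase fold protein, was at 0.917, 1.74, 0.886 and 0.466 CPM in cyclic and 12.5, 45.6 and 23.98 CPM in pregnant GE (log2 fold change 4.74 ± 0.55, adjusted p = 0.0276). Every pregnant library was above every cyclic one, and gilt PG39 had the highest level. Its neighbour TP53I13, which lies 1829 bases away, was at 2.06, 5.73, 4.43 and 3.96 CPM in cyclic and 18.2, 31.4 and 19.1 CPM in pregnant GE (log2 fold change 2.49 ± 0.36, adjusted p = 0.0374). MOCS1 (chr7:35286565-35320935), which acts in the first step of molybdenum cofactor synthesis, was at 12.1, 24.2, 59.6 and 96.0 CPM in cyclic and 668, 709.7 and 718 CPM in pregnant GE (log2 fold change 3.86 ± 0.63, adjusted p = 0.0419). Its pregnant levels lay close together, while cyclic levels ranged widely. KMO, kynurenine 3-monooxygenase of tryptophan degradation, was at 6.19, 12.5, 15.7 and 17.5 CPM in cyclic and 182, 106 and 54.8 CPM in pregnant GE (log2 fold change 3.14 ± 0.46, adjusted p = 0.0384). PFKFB3, which makes the glycolytic activator fructose 2,6-bisphosphate, averaged 9.31 ± 2.77 CPM in cyclic (SD, n = 4) and 55.4 ± 6.42 CPM in pregnant GE (SD, n = 3) (log2 fold change 2.57 ± 0.26, adjusted p = 0.0276).

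Further genes of this group were low in cyclic GE. CTXN3, GALNT15 (an enzyme that starts O-linked glycosylation), TSPAN5 (a tetraspanin) and KNG1 (kininogen) averaged 0.869, 1.67, 4.53 and 2.23 CPM in cyclic and 15.7, 28.3, 29.9 and 14.7 CPM in pregnant GE. Their log2 fold changes were 4.13 ± 0.53, 4.08 ± 0.67, 2.71 ± 0.37 and 2.71 ± 0.38. The loci without a symbol, LOC110256043, LOC110262115 and LOC100152327, rose by 3.84, 3.74 and 2.71 on the log2 scale, and the span of each overlaps other annotated genes, so their counts are uncertain. This holds for TSPAN5 as well, whose span overlaps that of LOC110262186 on the same strand by 6940 bases.

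Upregulated DEGs included 6 complement genes. For comparison, a list of 42 components, regulators and receptors of complement was written after the values had been seen, so no test is given for it. Of these 40 were matched (C4BPA, a symbol that 2 genes share, was not) and 21 detectable, with 6 upregulated and 0 downregulated DEGs, against 0.512% and 0.235% of all detectable genes. Those with an unadjusted p under 0.05 were 14 higher and 1 lower (CD59), against 11.2% and 11.8% of all detectable genes, and the median log2 fold change was 1.45 (1.22 without pregnant gilt PG139). Complement is a cascade of plasma proteins that tags and lyses cells, with C1R and C1S as the proteases of the classical start, C2, C4A and C3 as the next steps and SERPING1 as the inhibitor of C1R and C1S. C3 (chr2:72431470-72471622) was at 51.6, 127.6, 94.6 and 71.5 CPM in cyclic and 509, 476 and 409 CPM in pregnant GE (log2 fold change 2.43 ± 0.3, adjusted p = 0.0282). C1S (chr5:63670309-63681466) was at 25.9, 54.6, 39.9 and 39.8 CPM in cyclic and 264, 190.2 and 217 CPM in pregnant GE (log2 fold change 2.48 ± 0.25, adjusted p = 0.0276). C2 was at 1.38, 1.5, 1.11 and 0.699 CPM in cyclic and 19.1, 5.88 and 12.6 CPM in pregnant GE (log2 fold change 3.4 ± 0.48, adjusted p = 0.0361). In each of the 3 genes the lowest pregnant gilt stood well above the highest cyclic gilt. C4A averaged 129.7 ± 41.8 CPM in cyclic (SD, n = 4) and 439.6 ± 55.2 CPM in pregnant GE (SD, n = 3), with a log2 fold change of 1.76 ± 0.27. C1R and SERPING1 had log2 fold changes of 1.76 ± 0.23 and 1.97 ± 0.3 and adjusted p of 0.0296 and 0.0394. C1R and C1S lie 15159 bases apart and C2 and C4A 33976 bases apart.

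Other cell types were checked beside these genes. On the joint scale, cyclic and pregnant means were 511 and 1166 CPM in S and 36.9 and 208 CPM in GE for C1S, 666 and 1253 and 119 and 408 for C4A, 366 and 757 and 35.99 and 142 for SERPING1, and 90.7 and 738 and 79.5 and 432 for C3. Fibroblast markers, of which 11 of 12 were detectable, showed no detectable difference in sum (above), but that sum is mostly the collagens COL1A1, COL1A2 and COL3A1, and more of the single markers were higher than lower. With an unadjusted p under 0.05, 5 were higher (45.5%) and 1 lower (9.09%), against 11.2% and 11.8% of all detectable genes, and the median log2 fold change was 0.62 (0.35 without pregnant gilt PG139). FBLN1 was a DEG, at 43.3, 53.6, 41.4 and 39.8 CPM in cyclic and 111, 140.0 and 106 CPM in pregnant GE (log2 fold change 1.42 ± 0.17, adjusted p = 0.0276). DCN (decorin) was at 295, 291, 331 and 172 CPM in cyclic and 403, 560.4 and 455 CPM in pregnant GE, and the receptor PDGFRA at 116, 175, 181 and 157 CPM in cyclic and 267, 193 and 308 CPM in pregnant GE. PDGFRB was at 17.4, 18.4, 25.5 and 22.8 CPM in cyclic and 43.6, 34.7 and 38.2 CPM in pregnant GE. Each of these 4 markers was higher in every pregnant than in every cyclic gilt, and the adjusted p of DCN, PDGFRA and PDGFRB were 0.113, 0.118 and 0.0566. The collagen COL6A3 was lower in every pregnant gilt, at 168, 96.9, 84.4 and 65.7 CPM in cyclic and 53.8, 56.9 and 53.8 CPM in pregnant GE (adjusted p = 0.134), and COL3A1 overlapped, at 3275, 3009, 2700.0 and 1369 CPM in cyclic and 1207, 2942 and 2172 CPM in pregnant GE.

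Leukocyte markers, of which 7 of 20 were detectable, summed to 44.1 to 61.9 CPM in cyclic and 120 to 168 CPM in pregnant GE (exact permutation p = 0.0286, the smallest it can give, and 0.171 adjusted over 12 measures). Of the 7, 4 were higher (57.1%) and 0 lower at an unadjusted p under 0.05, against 11.2% and 11.8% of all detectable genes. The general marker PTPRC was at 12.1, 9.47, 5.54 and 8.15 CPM in cyclic and 25.4, 20.2 and 18.5 CPM in pregnant GE, the monocyte marker CD14 at 2.29, 11.5, 6.65 and 8.15 CPM in cyclic and 48.3, 31.6 and 77.5 CPM in pregnant GE and the macrophage receptor CSF1R at 10.3, 5.23, 6.65 and 7.92 CPM in cyclic and 41.9, 22.7 and 11.02 CPM in pregnant GE. CD163 and LYZ averaged 6.15 and 6.25 CPM in cyclic and 6.29 and 6.39 CPM in pregnant GE. Among lymphoid markers, none was detectable by the filter. CD2, CD4 and CD8A were higher in each pregnant than in each cyclic gilt, from at most 17 counts in a library. Their means were 0.592 and 2.19, 0.36 and 1.45 and 0.574 and 1.32 CPM in cyclic and pregnant GE. The groups overlapped for CD3E, CD3D and NKG7, with means of 0.412 and 0.365, 0.474 and 0.532 and 0.815 and 0.816 CPM. GZMB and CD79A had at most 1 count in a library, and MS4A1 was at 0 in every library. The part of other cell types in the rise of complement genes was not tested, and in LCM material more cells of a type and more RNA per cell cannot be told apart.

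**Figure D2:**
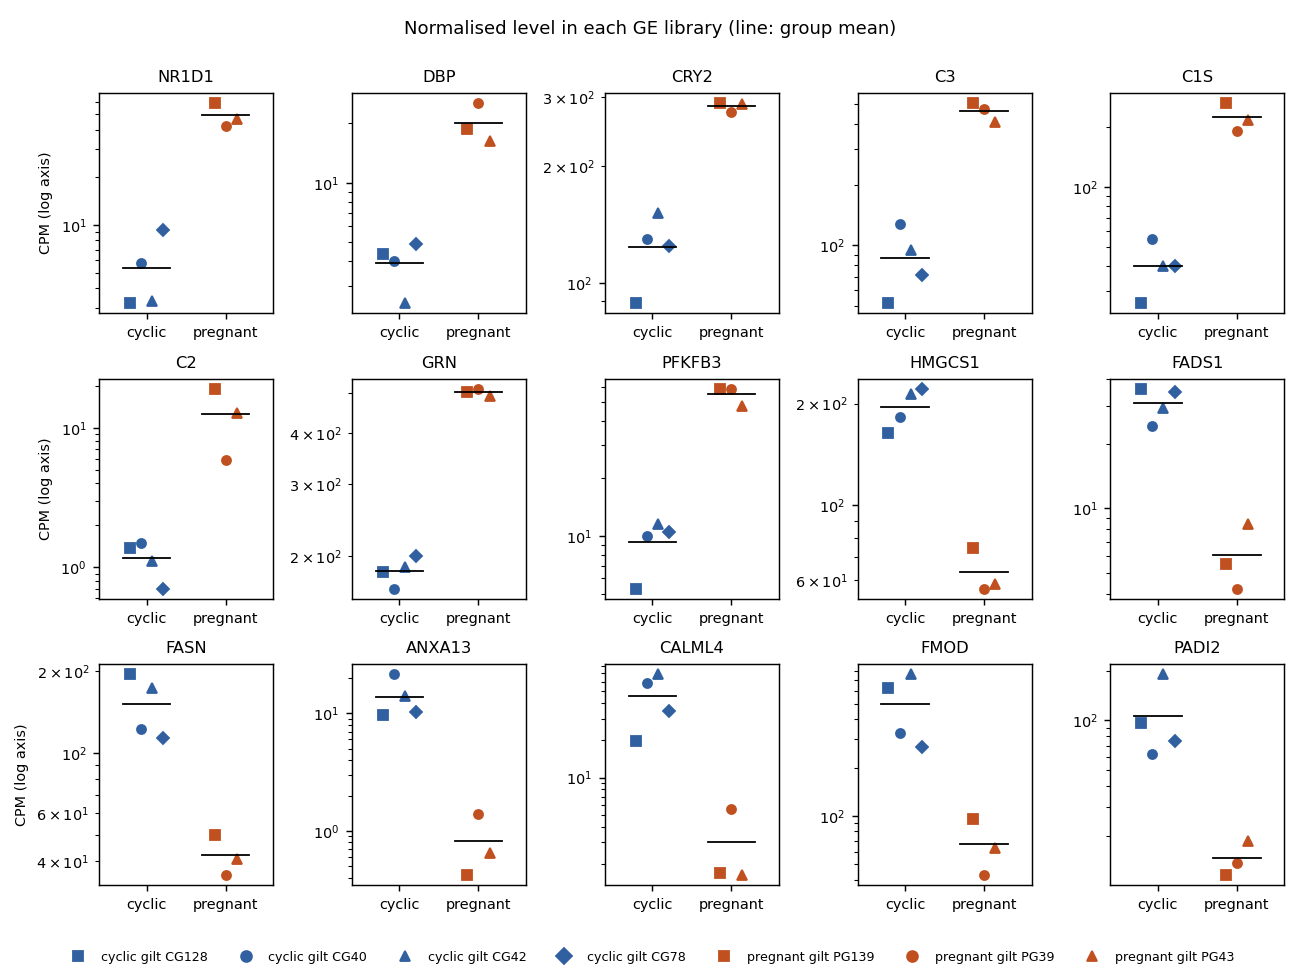
Each panel shows the level of a gene in the 7 GE libraries as CPM on a log axis, with blue symbols for cyclic and orange symbols for pregnant gilts, and a line at the group mean. The groups are apart in all 15 panels, with clock, complement and other genes higher and lipid synthesis genes, ANXA13, CALML4, FMOD and PADI2 lower in pregnant GE.

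Several of the 10 DEGs with the smallest p had modest fold changes, whereas others, such as ABHD15, NR1D1 and C1S, are among the widest. GRN (chr12:18893772-18900444), the lysosomal and secreted protein progranulin, was at 183, 166, 189 and 200.4 CPM in cyclic and 501, 513 and 491 CPM in pregnant GE (log2 fold change 1.44 ± 0.14, adjusted p = 0.0276). GNPTAB, which builds the mannose 6-phosphate tag that sends enzymes to the lysosome, was at 64.4, 53.3, 49.4 and 59.4 CPM in cyclic and 129.6, 145 and 171 CPM in pregnant GE (log2 fold change 1.39 ± 0.16, adjusted p = 0.0276). GNPTAB and its neighbour CHPT1, a DEG of phosphatidylcholine synthesis (log2 fold change 1.63 ± 0.25, adjusted p = 0.0394), lie 40105 bases apart, and the span of GNPTAB overlaps that of DRAM1 on the other strand. ENTPD5, a nucleotide phosphatase of the endoplasmic reticulum (ER), averaged 53.6 ± 14.2 CPM in cyclic (SD, n = 4) and 212 ± 28.2 CPM in pregnant GE (SD, n = 3). GRN, GNPTAB and ENTPD5 were called under each of the 7 omissions.

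The downregulated DEGs with the widest change were led by ANXA13 (chr4:15707576-15765934), a membrane-binding annexin of epithelia, at 9.63, 21.4, 13.96 and 10.3 CPM in cyclic and 0.424, 1.4 and 0.648 CPM in pregnant GE (log2 fold change -4.05 ± 0.52, adjusted p = 0.0287). ANXA13 and RGS7, a regulator of G protein signalling, were the 2 DEGs detectable in GE and in no other compartment. This held for 754 of all 11905 genes detectable in GE. CALML4, a calmodulin-like protein of the brush border, was at 19.9, 58.3, 68.7 and 34.9 CPM in cyclic and 1.69, 5.6 and 1.62 CPM in pregnant GE (log2 fold change -3.93 ± 0.61, adjusted p = 0.0394). FMOD, the collagen-binding proteoglycan fibromodulin, was at 628, 330.2, 763 and 270.3 CPM in cyclic and 95.3, 42.8 and 63.5 CPM in pregnant GE (log2 fold change -2.89 ± 0.46, adjusted p = 0.0405). On the joint scale FMOD averaged 459.7 and 62.4 CPM in cyclic and pregnant GE and 117 and 65.8 CPM in S, and 676 and 338 CPM in BV. PADI2, which turns arginine into citrulline in proteins, was at 96.9, 62.5, 189.8 and 74.8 CPM in cyclic and 11.6, 13.7 and 18.8 CPM in pregnant GE (log2 fold change -2.85 ± 0.44, adjusted p = 0.0394). AHCY, which clears S-adenosylhomocysteine, and S100A11, a calcium-binding protein, had log2 fold changes of -2.44 ± 0.4 and -1.55 ± 0.26. AHCY was called in 1 and S100A11 in 0 of the 7 fits that leave out a library. LOC100157017 and LOC110255465 fell by 2.79 and 3.79 on the log2 scale.

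Genes of fatty acid and cholesterol synthesis had a lower median level in pregnant GE, and 4 of them were downregulated DEGs. Cells build cholesterol through HMGCS1 and fatty acids through FASN, under SREBP factors that bind sterol regulatory elements. Of 50 listed genes 48 were matched and 43 detectable. Downregulated DEGs numbered 4 and upregulated DEGs 0, against 0.235% and 0.512% of all detectable genes. With an unadjusted p under 0.05 there were 22 lower and 3 higher members, against 11.8% and 11.2% of all genes, and the median log2 fold change was -0.81 against -0.01 (-0.89 without cyclic gilt CG128). By the robust GLM, 16 were lower and 1 higher.

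HMGCS1 (chr16:27936225-27957261) was at 163, 183, 214 and 222 CPM in cyclic and 74.8, 56.3 and 58.3 CPM in pregnant GE (log2 fold change -1.63 ± 0.18, adjusted p = 0.0276). Every pregnant gilt was below every cyclic gilt. FASN (chr12:922405-937560) was at 194, 122, 173 and 113 CPM in cyclic and 49.8, 35.6 and 40.8 CPM in pregnant GE (log2 fold change -1.84 ± 0.25, adjusted p = 0.0296). FADS1 (chr2:9735425-9747405), which desaturates long fatty acids, was at 36.2, 24.2, 29.2 and 34.7 CPM in cyclic and 5.51, 4.2 and 8.43 CPM in pregnant GE (log2 fold change -2.37 ± 0.28, adjusted p = 0.0276). FASN kept its call in 5 of the 7 fits without a library, with log2 fold changes of -1.97 to -1.69. Of members that were not called, ME1 (malic enzyme), STARD4 (a cholesterol carrier) and LSS (lanosterol synthase) had log2 fold changes of -1.93 ± 0.36, -1.95 ± 0.37 and -1.33 ± 0.25, with adjusted p of 0.0455, 0.0478 and 0.0482. ACACB, named after its values were seen, went the other way at 13.1, 34.6, 41.6 and 23.8 CPM in cyclic and 111, 73.1 and 70.7 CPM in pregnant GE, with a log2 fold change of 1.59 ± 0.37 (adjusted p = 0.0689).

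The 250 bases before the annotated start of HMGCS1, FASN, FADS1, ME1 and STARD4 were searched for the core of the sterol regulatory element, CACCCCAC, on both strands, in RefSeq's annotation of Sscrofa11.1. Of these 5 genes, 2 held it (LSS, which is not placed on a chromosome, was not searched), against 2.16% of 11704 promoters of detectable genes. They are printed 5′ to 3′ with the match in capitals, HMGCS1 at chr16:27957262-27957511, minus strand, and STARD4 at chr2:116257144-116257393, minus strand. A match is a description of these letters, not a binding site.
HMGCS1: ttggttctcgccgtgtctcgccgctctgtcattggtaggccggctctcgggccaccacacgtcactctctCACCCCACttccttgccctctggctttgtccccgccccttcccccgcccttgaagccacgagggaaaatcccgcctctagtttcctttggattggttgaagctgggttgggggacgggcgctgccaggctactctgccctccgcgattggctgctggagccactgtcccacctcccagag
STARD4: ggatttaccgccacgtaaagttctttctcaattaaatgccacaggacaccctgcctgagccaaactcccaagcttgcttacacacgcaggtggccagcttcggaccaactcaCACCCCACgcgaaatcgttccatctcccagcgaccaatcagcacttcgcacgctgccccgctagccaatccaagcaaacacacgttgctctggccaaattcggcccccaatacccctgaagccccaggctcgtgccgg

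Circadian clock genes held the largest share of DEGs among the 17 lists. The clock is a loop in which CLOCK and ARNTL switch on PER and CRY genes that repress them, while NR1D1 (REV-ERB alpha) represses ARNTL and the PAR bZIP factors DBP, TEF and HLF drive output genes. Of 26 listed genes 24 were matched and 21 detectable, of which 3 were upregulated and 0 downregulated DEGs, against 0.512% and 0.235% of all detectable genes. At an unadjusted p under 0.05, 12 were higher (57.1%) and 0 lower, against 11.2% and 11.8% of all genes, and the median log2 fold change was 0.64 (0.55 without cyclic gilt CG128). NR1D1 (chr12:22263549-22274131) was at 3.21, 5.73, 3.32 and 9.32 CPM in cyclic and 59.1, 42.3 and 46.99 CPM in pregnant GE (log2 fold change 3.19 ± 0.37, adjusted p = 0.0276). DBP (chr6:53986955-53993044) was at 4.35, 3.99, 2.44 and 4.89 CPM in cyclic and 18.8, 25.5 and 16.2 CPM in pregnant GE (log2 fold change 2.36 ± 0.3, adjusted p = 0.0287). CRY2 (chr2:16587101-16620380) was at 88.9, 130.1, 151 and 125 CPM in cyclic and 290.1, 275 and 287 CPM in pregnant GE (log2 fold change 1.2 ± 0.19, adjusted p = 0.0394). In all 3 genes each pregnant gilt was above each cyclic gilt. CRY2 was called in 2 of the 7 fits without a library, with log2 fold changes of 1.07 to 1.32.

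The span of NR1D1 overlaps that of THRA on the other strand by 3626 bases, and whether the counting used strand is not given in the sources used here. THRA, a thyroid hormone receptor, was at 31.6, 39.6, 45.6 and 43.8 CPM in cyclic and 85.1, 82.9 and 56.4 CPM in pregnant GE (log2 fold change 0.9 ± 0.2, adjusted p = 0.0632). Members that were not called were TEF, RORA (an activator of ARNTL) and PER3, with log2 fold changes of 1.28 ± 0.26, 0.83 ± 0.22 and 0.58 ± 0.15 and adjusted p of 0.0539, 0.0835 and 0.0842. The time of day at which each gilt was slaughtered is not given in the sources used here, so its part in these differences was not tested.

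The same window of the 6 clock genes named here was searched for the E-box CACGTG, the site of CLOCK and ARNTL, and for the D-box TTANGTAA, the site of PAR bZIP factors, on both strands. TEF and PER3 held an E-box, as did 7.48% of 11704 promoters, and PER3 held D-boxes as well, as did 1.52%. NR1D1, DBP, CRY2 and RORA held neither in this window. Matches are in capitals in the sequence of PER3, which held both motifs, at chr6:68487384-68487633, plus strand.
PER3: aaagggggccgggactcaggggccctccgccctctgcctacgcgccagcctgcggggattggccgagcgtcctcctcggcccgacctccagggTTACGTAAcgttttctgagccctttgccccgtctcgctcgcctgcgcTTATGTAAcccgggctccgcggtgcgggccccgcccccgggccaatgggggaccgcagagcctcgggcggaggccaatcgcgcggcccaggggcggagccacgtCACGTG

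Interferon-stimulated genes differed strongly among the pregnant gilts. These genes answer interferons with antiviral, antigen-presenting and chemokine functions. Of 93 listed genes 86 were matched and 73 detectable, and 1 was an upregulated and 0 were downregulated DEGs. With an unadjusted p under 0.05, 27 were higher (37%) and 2 lower (2.74%), against 11.2% and 11.8% of all detectable genes, of which 0.512% were upregulated DEGs. The median log2 fold change was 0.51 with all libraries and -0.0018 without pregnant gilt PG139. IFITM1 (chr2:124095-125495), a membrane protein that blocks virus entry, was the DEG, at 12.4, 15.5, 24.1 and 20.7 CPM in cyclic and 91.3, 45.4 and 58.01 CPM in pregnant GE (log2 fold change 1.84 ± 0.31, adjusted p = 0.0434), and it was called in 1 of the 7 fits without a library.

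GBP1, a guanylate-binding protein, was at 2.29, 1.25, 1.33 and 0.699 CPM in cyclic and 385, 4.76 and 65.8 CPM in pregnant GE (log2 fold change 6.74 ± 1.33, adjusted p = 0.05, not called). CXCL10, a chemokine that draws T cells, was at 1.15, 0.498, 0.886 and 0.233 CPM in cyclic and 71.6, 0.56 and 28.2 CPM in pregnant GE (log2 fold change 5.53 ± 1.23, adjusted p = 0.0624, not called). Gilt PG139 was far above gilt PG43, and gilt PG39 was near or within the cyclic range. TNFSF10, a death ligand, was at 10.5, 10.2, 11.7 and 11.9 CPM in cyclic and 355, 28.8 and 99.2 CPM in pregnant GE, with a log2 fold change of 3.86 ± 0.72 (adjusted p = 0.0478). The order of gilts was the same in IRF1 and NLRC5, named after their values were seen, with 189 and 97.6 CPM in gilt PG139 and 14.8 and 1.68 CPM in gilt PG39. The class II genes CD74 and SLA-DRA had log2 fold changes of 2.16 ± 0.42 and 1.8 ± 0.39, with adjusted p of 0.049 and 0.0568. Without pregnant gilt PG139 the log2 fold change of GBP1 was 4.63 and that of CXCL10 4.31.

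Endothelial markers had the same order among the pregnant gilts. Their sum over 11 genes, 5 of them detectable, was 19.3 to 55.0 CPM in cyclic GE and 212, 23.2 and 72.9 CPM in pregnant gilts PG139, PG39 and PG43 (exact permutation p = 0.200). The marker VWF was at 4.98 to 19.6 CPM in cyclic GE and at 78.4, 5.88 and 28.5 CPM in the same pregnant gilts. Cyclic blood vessels (BV) averaged 2586 CPM for the same markers on the joint scale, on which pregnant GE averaged 95.4 CPM. The part of vessel cells in the level of interferon-stimulated genes was not tested.

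Of 8 genes searched (IFITM1, CD74, GBP1, SLA-DRA, TNFSF10, CXCL10, IRF1 and NLRC5), 1 held the core of the interferon-stimulated response element, which is TTTC, any 2 bases and TTTC again, on either strand within 250 bases of its start, against 2.53% of 11704 promoters. It was CXCL10 at chr8:71695949-71696198, minus strand, where the match on the other strand is in capitals.
CXCL10: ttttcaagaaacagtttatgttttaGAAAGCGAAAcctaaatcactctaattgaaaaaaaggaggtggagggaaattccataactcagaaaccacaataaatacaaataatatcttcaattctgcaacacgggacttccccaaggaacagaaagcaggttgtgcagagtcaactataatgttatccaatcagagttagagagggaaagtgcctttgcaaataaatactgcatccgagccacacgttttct

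**Figure D3:**
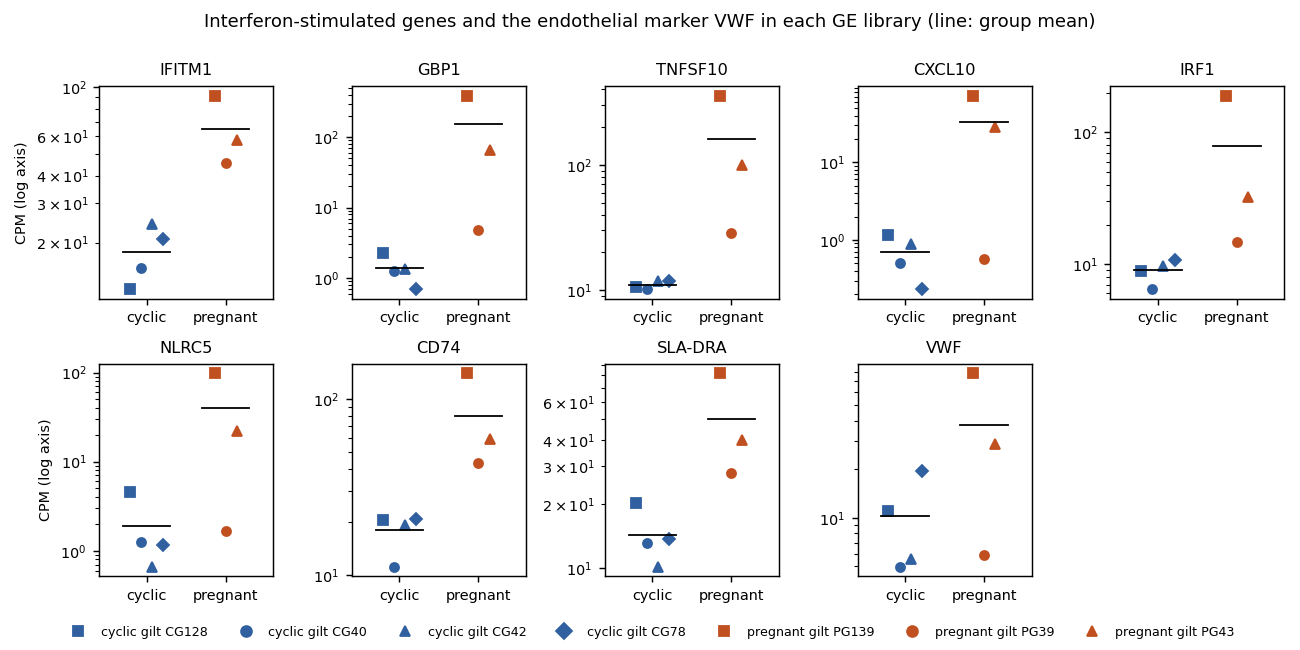
Each panel shows CPM on a log axis in the 7 GE libraries, in blue for cyclic and orange for pregnant gilts, with a line at the group mean. In GBP1, CXCL10, IRF1, NLRC5 and TNFSF10 the orange squares of gilt PG139 are highest and the orange circles of gilt PG39 lowest of the pregnant gilts, as in the endothelial marker VWF.

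Secreted and lysosomal proteins of histotroph held a single DEG. Of 45 listed genes 43 were matched and 34 detectable, of which 1, the complement inhibitor SERPING1, was an upregulated DEG, against 0.512% of all detectable genes. At an unadjusted p under 0.05, 12 were higher (35.3%) and 0 lower, against 11.2% and 11.8% of all genes, and the median log2 fold change was 0.6 (0.68 without cyclic gilt CG128). FGF9, a growth factor, was at 2.98, 3.99, 3.32 and 2.1 CPM in cyclic and 7.84, 14.0 and 15.9 CPM in pregnant GE (log2 fold change 2.01 ± 0.35, adjusted p = 0.0451, not called). PSAP, the precursor of lysosomal activators, averaged 551 ± 94.96 CPM in cyclic (SD, n = 4) and 1019 ± 127 CPM in pregnant GE (SD, n = 3) (adjusted p = 0.0652), and HEXA had a log2 fold change of 0.64 ± 0.16 (adjusted p = 0.0779). ACP5 and RBP4, whose levels are given above, had log2 fold changes of 1.92 ± 1.1 and 2.89 ± 0.98 and adjusted p of 0.339 and 0.137. Without cyclic gilt CG128 these were 1.5 and 2.48, with adjusted p of 0.0404 and 0.0222. CG128 was described as apart partly by its low levels of both genes, so these adjusted p are no independent support. Each pregnant gilt was above each cyclic gilt for both genes also with CG128 kept, and 23.0% of all detectable genes had groups without overlap.

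Gland markers did not move together, and more of them were lower than higher in pregnant GE. Of 10, 9 were matched and 8 detectable, and none was a DEG. Their sum was 2561 to 3357 CPM in cyclic and 5215 to 7719 CPM in pregnant GE (exact permutation p = 0.0286, the smallest it can give, and 0.171 adjusted over 12 measures), and most of the pregnant sum was ACP5. The median log2 fold change of the 8 genes was -0.61 (-0.54 without cyclic gilt CG128). At an unadjusted p under 0.05, 4 were lower (50%) and 0 higher, against 11.8% and 11.2% of all detectable genes. Groups did not overlap for 5 lower members (62.5%) and 1 higher member, against 23.0% of all detectable genes. SOX17, a transcription factor, was at 426, 209.6, 205.8 and 223.7 CPM in cyclic and 180.9, 179.5 and 171.8 CPM in pregnant GE. CFTR, a chloride channel, was at 117.6, 92.95, 89.5 and 86.7 CPM in cyclic and 86.4, 49.9 and 50.6 CPM in pregnant GE. MUC6, a gel-forming mucin of glands, was at 171, 4.98, 71.1 and 28.2 CPM in cyclic and 0.635, 0.56 and 0.972 CPM in pregnant GE (log2 fold change -6.55 ± 1.37, adjusted p = 0.0558, not called). AQP3 was at 1632, 262, 146 and 163 CPM in cyclic and 8.05, 71.97 and 47.6 CPM in pregnant GE, and CCL28, a mucosal chemokine, at 783, 129, 219.5 and 130.2 CPM in cyclic and 94.5, 22.1 and 17.5 CPM in pregnant GE. Their log2 fold changes were -3.7 ± 1.15 and -2.81 ± 0.89 with all libraries and -2.17 and -1.82 without cyclic gilt CG128. ACP5, RBP4, SOX17, CFTR, AQP3 and CCL28 were named after their values were seen.

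Cytochrome P450 and retinoid enzymes held no DEG (22 of 43 detectable). At an unadjusted p under 0.05, 3 were higher (13.6%, near the 11.2% of all detectable genes) and 8 lower (36.4%, against 11.8%). The robust GLM called 2 higher and 7 lower, against 4.19% and 2.47% of all genes. CYP2C enzymes oxidise drugs, fatty acids and steroids. CYP2C49, named after its values were seen, had 121 counts over the cyclic and 1 count over the pregnant libraries, a ratio of pooled CPM of 80.1 with an exact 95% binomial interval of 14.1 to 3191, which covers counting error only. Its cyclic counts came from gilts CG40, CG42 and CG78, with 0 in gilt CG128. LOC100624435 had 86 and 1 counts (ratio 56.9, interval 9.95 to 2275). CYP2C34 was at 0, 39.6, 40.8 and 12.1 CPM in cyclic and 0, 4.48 and 0 CPM in pregnant GE. These genes resemble each other, so that reads may be split between them. DHRS3 and RDH10, which turn retinal into retinol and retinol into retinal, had log2 fold changes of 1.35 ± 0.24 and 1.67 ± 0.34, and ALDH1A3, which makes retinoic acid, of -2.06 ± 0.38, with adjusted p of 0.0451, 0.0539 and 0.0451.

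Growth factors and their receptors had the highest median of the 17 lists. It was 0.82 over 49 detectable of 70 listed genes (0.74 without cyclic gilt CG128 and 0.63 without pregnant gilt PG139), with 1 upregulated DEG, against 0.512% of all genes. At an unadjusted p under 0.05, 19 members were higher (38.8%) and 1 lower (2.04%), against 11.2% and 11.8% of all detectable genes. The list shares PDGFRA and PDGFRB with the fibroblast markers and KDR and TEK with the endothelial markers. Their means in cyclic and pregnant GE were 157 and 256, 21.0 and 38.9, 4.48 and 16.0 and 4.70 and 9.80 CPM. The part of other cell types in the median of this list was not tested. ERBB2 (chr12:22591621-22621384), a receptor of the EGF family, was at 32.8, 45.1, 51.2 and 48.5 CPM in cyclic and 123, 131 and 86.9 CPM in pregnant GE (log2 fold change 1.36 ± 0.21, adjusted p = 0.0394). INSR, the insulin receptor, was at 40.1, 131, 88.6 and 121 CPM in cyclic and 371, 351 and 333 CPM in pregnant GE, and IGFBP5, an IGF-binding protein, at 12.1, 11.7, 8.2 and 11.9 CPM in cyclic and 31.3, 19.9 and 32.1 CPM in pregnant GE, with adjusted p of 0.0482 and 0.0451. IGF1, named like IGF1R after its values were seen, was the lower member, at 273, 232, 367 and 183 CPM in cyclic and 80.7, 111 and 132 CPM in pregnant GE (log2 fold change -1.29 ± 0.28, adjusted p = 0.0583, not called), while its receptor IGF1R averaged 356 ± 39.5 CPM in cyclic (SD, n = 4) and 688 ± 123 CPM in pregnant GE (SD, n = 3) (adjusted p = 0.0485).

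Steroid receptors and transcription factors of glands gave 1 DEG among 44 detectable genes, against 0.512% of all genes called upward. At an unadjusted p under 0.05, 11 were higher (25%, against 11.2% of all genes) and 6 lower (13.6%, near the 11.8% of all genes). EHF (chr2:26287244-26340222), an epithelial ETS factor, was at 65.1, 48.6, 55.4 and 66.9 CPM in cyclic and 123, 170.3 and 152 CPM in pregnant GE (log2 fold change 1.33 ± 0.18, adjusted p = 0.0296). NR3C2, the mineralocorticoid receptor, and EMX2, a homeobox factor, had log2 fold changes of 2.28 ± 0.39 and 0.88 ± 0.15, and PAQR7, a membrane progestin receptor, of -1.92 ± 0.32. Their adjusted p were 0.0436, 0.0436 and 0.0434. ESR1, the estrogen receptor, named after its values were seen, was at 673, 474, 528 and 404 CPM in cyclic and 235, 288 and 178 CPM in pregnant GE (adjusted p = 0.0566).

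Transport and adhesion lists gave single upregulated DEGs, against 0.512% of all detectable genes. In ion, water and acid-base transport (32 detectable of 63), WNK1 (chr5:68000792-68142533), a kinase that steers sodium and chloride transport, was at 234, 305, 220.0 and 331 CPM in cyclic and 585, 827 and 703 CPM in pregnant GE (log2 fold change 1.37 ± 0.21, adjusted p = 0.0394). ATP1B1, the beta subunit of the sodium pump, TRPM4, a cation channel, and KCNQ1, a potassium channel, had log2 fold changes of -1.67 ± 0.3, -2.5 ± 0.59 and 1.94 ± 0.55, with adjusted p of 0.0451, 0.069 and 0.0974. Among glucose and amino acid transporters (28 detectable of 48), the DEG was the glucose transporter SLC2A12, at 12.8, 9.97, 6.65 and 12.8 CPM in cyclic and 30.7, 34.4 and 31.8 CPM in pregnant GE (log2 fold change 1.61 ± 0.25, adjusted p = 0.0394). SLC2A3, another glucose transporter, SLC1A1, a glutamate transporter, and SLC43A2 had log2 fold changes of -2.57 ± 0.5, 2.94 ± 0.6 and 1.29 ± 0.31 and were not called.

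Adhesion genes (41 detectable of 59) held the DEG ITGB5, an integrin subunit that pairs with ITGAV, at 17.9, 22.9, 19.3 and 13.5 CPM in cyclic and 47.02, 42.01 and 47.6 CPM in pregnant GE (log2 fold change 1.31 ± 0.2, adjusted p = 0.0394). Not called were LOC100519934, at 0, 1.5, 0.665 and 0 CPM in cyclic and 69.9, 25.5 and 7.78 CPM in pregnant GE, and CDH6, a cadherin, with a log2 fold change of -1.61 ± 0.37. Wnt genes (31 detectable of 57) held no DEG, with 10 higher (32.3%) and 1 lower (3.23%) at an unadjusted p under 0.05, against 11.2% and 11.8% of all detectable genes. Here LRP1, a receptor of many ligands, TCF7L2, a transcription factor of the pathway, and ROR2, a Wnt receptor, had log2 fold changes of 0.83 ± 0.16, 2.02 ± 0.39 and 1.47 ± 0.33.

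Lists without a DEG included mitochondrial energy metabolism (53 detectable of 63), with a median of -0.35. At an unadjusted p under 0.05, 20 were lower (37.7%) and 1 higher (1.89%), against 11.8% and 11.2% of all detectable genes. ATP5B and ATP5A1, subunits of ATP synthase, and MDH2, malate dehydrogenase, had log2 fold changes of -1.04 ± 0.2, -0.72 ± 0.15 and -1.05 ± 0.23. Chaperones of the ER and genes of the unfolded protein response (50 detectable of 53) had 13 lower (26%) and 2 higher members (4%) by the same limit, against 11.8% and 11.2% of all detectable genes. DNAJB11, MANF and XBP1 were at -1.02 ± 0.2, -1.33 ± 0.28 and -0.69 ± 0.16 on the log2 scale. Cytokines, chemokines and their receptors (33 detectable of 73) had 12 higher (36.4%) and 4 lower members (12.1%, near the 11.8% of all genes), with a median of 0.65, or 0.29 without pregnant gilt PG139. IL1A, an alarm cytokine, was at 0.229, 0.997, 1.11 and 4.43 CPM in cyclic and 4.45, 45.4 and 26.6 CPM in pregnant GE (adjusted p = 0.0704).

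Prostaglandin genes (14 detectable of 27) had 3 higher (21.4%) and 0 lower members at an unadjusted p under 0.05, against 11.2% and 11.8% of all detectable genes. These were PTGIS (prostacyclin synthase), HPGD, which breaks prostaglandins down, and PTGER2, a receptor of prostaglandin E2, with log2 fold changes of 1.15 ± 0.27, 2.6 ± 0.98 and 1.67 ± 0.63. The spans of HPGD and PTGER2 overlap those of LOC110256674 and PTGDR on the same strand by 2978 and 12415 bases, so their counts are uncertain. HPGD was at 1.38, 0.997, 5.09 and 32.6 CPM in cyclic and 76.9, 61.3 and 44.1 CPM in pregnant GE, so that cyclic gilt CG78 was nearer to the pregnant gilts than to its own group. Mucins and glycosyltransferases (28 detectable of 53) had 1 higher (3.57%) and 3 lower members (10.7%), so neither share was above that of all genes. B4GALT6, which adds galactose, was at 2.29, 1.5, 0 and 1.17 CPM in cyclic and 0.212, 64.1 and 43.8 CPM in pregnant GE, and GALNT1, which starts O-linked glycosylation, had a log2 fold change of -0.69 ± 0.2. Immediate early and heat shock genes (29 detectable of 41) had 1 higher and 2 lower members, FOSL2 at 1.51 ± 0.42 and HSPA8 and HSP90AB1 at -1.04 ± 0.3 and -0.89 ± 0.28 on the log2 scale, and their median was -0.07. Both shares (3.45% and 6.9%) were below those of all genes.

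**Figure D4:**
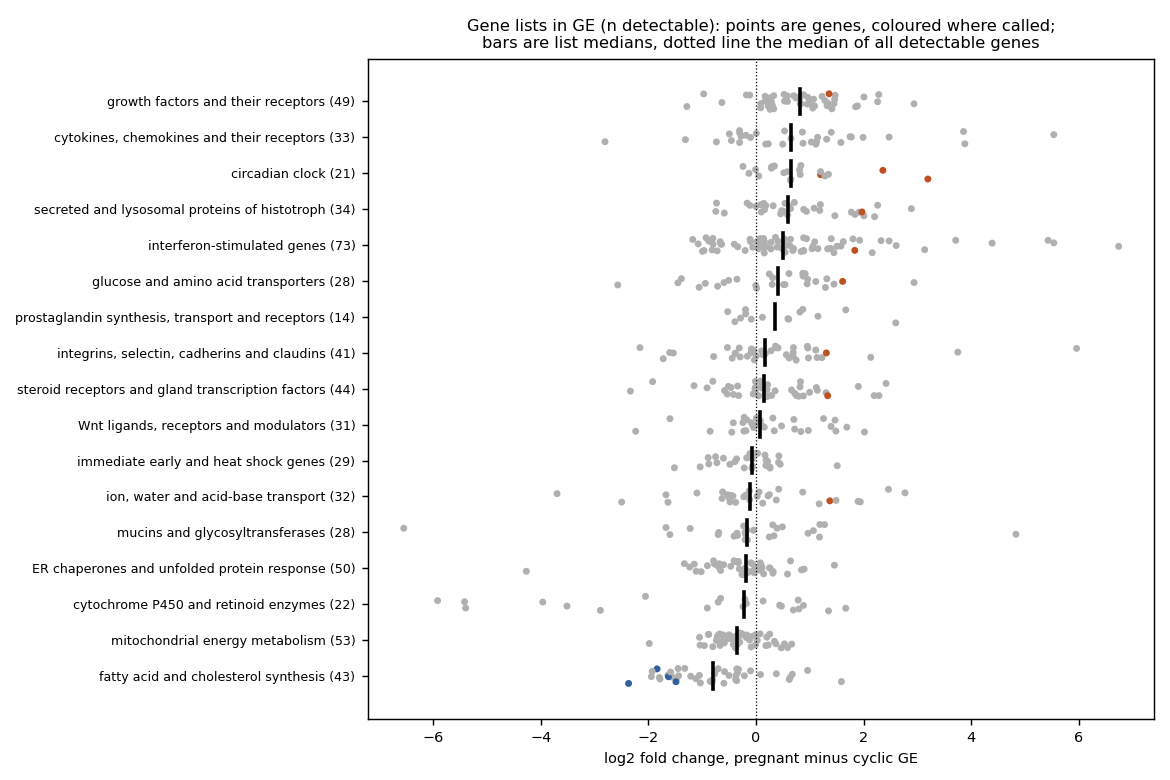
Rows are the 17 gene lists with the number of detectable genes, points are genes on an x axis of log2 fold change (pregnant minus cyclic GE), coloured where called, and bars are list medians. The median is lowest for fatty acid and cholesterol synthesis (-0.81) and highest for growth factors and their receptors (0.82), beside -0.01 for all detectable genes (dotted line).

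Whether the response of GE differed from that of LE, the surface epithelium, was tested on the 10922 genes detectable in both. The LE libraries came from the same gilts and from pregnant gilt 41, whose GE library was not analysed. The pregnancy effect differed for 143 genes (1.31%) at an adjusted p under 0.05 and for 223 (2.04%) when each gilt was kept as a block. Of the 89 DEGs of GE, 84 were tested, and 5 differed, or 7 with the block. HMGCS1 fell by less in GE than in LE, with log2 fold changes of -2.99 ± 0.17 in LE and -1.63 in GE (difference of log2 fold changes, GE minus LE, 1.38 ± 0.23, adjusted p = 0.0135). WNK1 rose by less in GE, against 2.62 ± 0.16 in LE (difference of log2 fold changes, GE minus LE, -1.23 ± 0.24, adjusted p = 0.0268). EHF rose in GE, with -0.05 ± 0.16 in LE (difference of log2 fold changes, GE minus LE, 1.39 ± 0.23, adjusted p = 0.0135). FAM111B, a protease named after its values were seen, and LOC110262115 also rose more in GE, with differences of 2.2 ± 0.43 and 3.78 ± 0.81 and adjusted p of 0.0265 and 0.0374. KNG1 and FAM174B differed with the block only (adjusted p = 0.0437 and 0.0457, and 0.173 and 0.102 without it).

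Of the named list members that were not DEGs of GE, 5 differed between the epithelia. XBP1, a factor of the unfolded protein response, had log2 fold changes of -0.69 ± 0.16 in GE and 0.86 ± 0.17 in LE (difference of log2 fold changes, GE minus LE, -1.53 ± 0.22, adjusted p = 0.00859). HPGD had 2.6 ± 0.98 in GE and -2.76 ± 0.48 in LE (difference of log2 fold changes, GE minus LE, 5.37 ± 1.14, adjusted p = 0.0345, or 0.0684 with the block). ALDH1A3, PAQR7 and TRPM4, whose fold changes in GE are given above, had log2 fold changes of -0.25 ± 0.15, 0.73 ± 0.43 and 0.4 ± 0.22 in LE and adjusted p of the difference of 0.0404, 0.0397 and 0.0345 (with the block 0.0803, 0.0235 and 0.025). The number of genes that differed was 2 without pregnant gilt PG39 and between 10 and 239 without other gilts, so this number rests on single gilts.

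**Figure D5:**
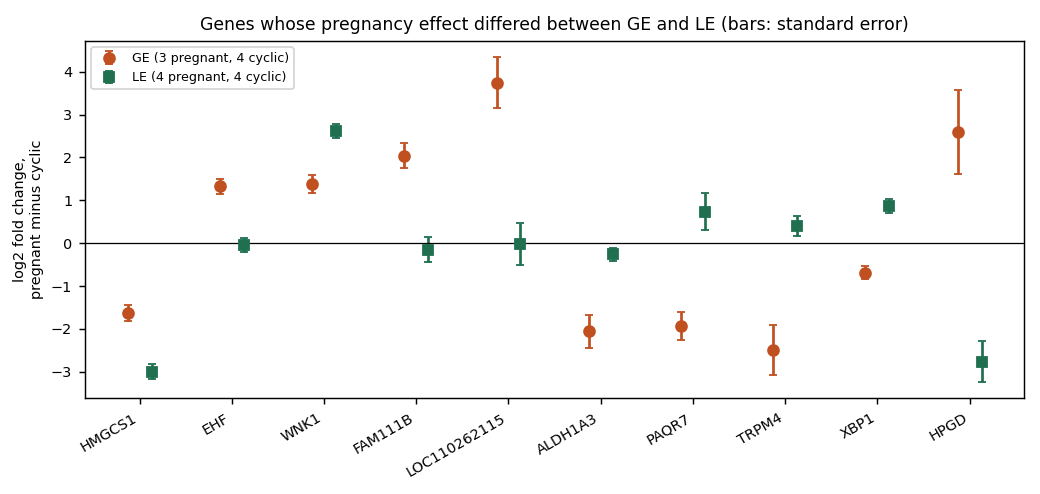
Points are log2 fold changes, pregnant minus cyclic, in GE (orange circles) and LE (green squares) for 10 named genes whose difference between the epithelia had an adjusted p under 0.05, and bars are standard errors. HMGCS1 is lower in both, WNK1 higher in both, and XBP1 and HPGD lie on opposite sides of 0.

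Across compartments, the clock and complement genes were set side by side without a test. NR1D1 had log2 fold changes of 3.19 ± 0.37 in GE, 2.62 ± 0.47 in LE, 1.47 ± 0.19 in BV and 1.54 ± 0.25 in S. CRY2 averaged 114 and 264 CPM in cyclic and pregnant GE on the joint scale and 17.1 and 35.6 CPM in LE, so its level was higher in the glands than at the surface in either state. C3 had 2.43 ± 0.3 in GE, 2.87 ± 0.76 in LE, 1.63 ± 0.48 in BV and 3.03 ± 0.6 in S. FADS1 had -2.37 ± 0.28 in GE, -1.91 ± 0.21 in LE, -1.15 ± 0.18 in BV and -0.38 ± 0.3 in S. Of the 89 DEGs of GE, 84, 81 and 83 were detectable in LE, BV and S. Of all 11905 genes detectable in GE, 10922 were detectable in LE.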

How the data were processed

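Libraries were made from picogram amounts of LCM RNA with the Ovation SoLo kit, and single reads were sequenced. For trimming the authors used Trim Galore, for alignment to Sscrofa11.1 Hisat2, for removal of PCR copies nudup and for counting over NCBI genes QuasR (versions and the strand setting are not given in the sources used here). The deposited values are whole, unnormalised counts per gene, and the deposited filtered table of GE holds genes above a CPM cut-off of the authors. Gene symbols and positions came from RefSeq's annotation of Sscrofa11.1, which all 30185 gene IDs matched.

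Pregnant and cyclic GE libraries were compared in edgeR 4.0.16 (R 4.3.3) by its quasi-likelihood F test on the filtered counts with TMM normalisation, and p-values were adjusted after Benjamini and Hochberg. As in the methods of the study, the largest p called in LE at a false discovery rate of 1% was the limit in GE, for the robust GLM 0.00114 and for DESeq2 1.42.0 0.00112. The study applied this rule with the robust GLM of edgeR. The DEGs given here rest instead on the quasi-likelihood test and leave out the GE library of pregnant gilt 41. The effect in GE minus that in LE was tested in a fit of 15 libraries, with the gilt as a block in the alternative. LE and GE came from the same gilts, except for pregnant gilt 41, which was in LE only. Deviations of same-numbered libraries correlated at 0.0669 to 0.394. Summed markers and library measures were compared by exact permutation, adjusted over 12 measures. Tests were checked on simulated data.

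Named were, of DEGs whose groups did not overlap, the 15 with the largest upward and 12 with the largest downward change, the 10 with the smallest p, each DEG in a list and up to 3 uncalled members per list with the smallest p. Members and lists were chosen with earlier results of these data known. Genes outside this rule were named after their values were seen, which holds for markers with values, for the complement list and for C3, C4A, C1R, CHPT1, THRA and ACACB. The alternatives tried were other tests, scalings, filters and thresholds, thinned counts and each library left out. Some genes and sequences that these rules name are not reported here.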

Additional observations from a re-analysis of the deposited data

Results flagged for a closer look

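Within the 4 cyclic GE libraries, single gilts lay apart from the other gilts of their group by Dixon's criterion, which flags about 1 in 20 groups by chance. Gilt CG128 was apart in TEF (19.9 CPM), AQP3 (1632 CPM), CCL28 (783 CPM) and NLRC5 (4.58 CPM). Gilt CG78 was apart in LSS (48.9 CPM), HPGD (32.6 CPM) and OSBPL11 (60.8 CPM), and its ribosomal RNA genes took 5.20% of counts against 12.9% to 14.0% in the other cyclic gilts. Gilt CG42 was apart in IGFBP5 (8.20 CPM), and gilt CG40 in the summed red blood cell markers (64.3 CPM).

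Differences of log2 fold changes, GE minus LE, had an adjusted p under 0.05 in edgeR's quasi-likelihood test for LOC110262115 (3.78), HMGCS1 (1.38), ALDH1A3 (-1.79), HPGD (5.37), EHF (1.39), PAQR7 (-2.64), WNK1 (-1.23), TRPM4 (-2.89), XBP1 (-1.53) and FAM111B (2.2).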

How the results depend on the processing

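The count of 89 DEGs (61 up, 28 down) was 793 (499, 294) with the robust GLM, 791 (445, 346) with DESeq2, 181 (120, 61) without a filter, 221 (138, 83) at a false discovery rate of 5% within GE and 0 (0, 0) at 1% within GE, where the quasi-likelihood test had 2742 genes at an unadjusted p under 0.05. It ranged from 38 to 110 (28 to 80 up, 7 to 30 down) with each library left out, and it was 106 (84, 22) without both cyclic gilt CG128 and pregnant gilt PG139, a choice made after the data had been seen. RLE normalisation, filterByExpr, thinned counts and the omission of ribosomal RNA genes kept it within 1.5 times, and no named gene changed direction under any alternative. Over all alternatives, fold changes of single genes lost the call 417 times and gained it 171 times, and list medians moved by more than the median standard error of their genes 6 times. For GE minus LE, 143 genes passed, 223 with the replicate block (gilt), 630 with the robust GLM and 16 at a false discovery rate of 1%, and 2 to 239 with each gilt left out. Of named genes, ALDH1A3 and HPGD passed only without the block and KNG1, FAM174B, IL1A and SLC43A2 only with it. No paired analysis was possible because the groups of that comparison (pregnant and cyclic GE) hold different gilts.

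Differences of means, pregnant minus cyclic, cannot pass 0.05 in the exact permutation test with a gilt left out. For summed markers (CPM) they then ranged from -53.5 to 124 for epithelium (-124 on raw library totals, 25.8 with TMM), 2976 to 4228 for gland, -2.79 to 7.76 for luminal epithelium, -52.9 to 11.01 for smooth muscle, 8.98 to 104 for endothelium, -1057 to 589 for fibroblast, 86.1 to 110 for leukocyte and -1.11 to 23.8 for red blood cell markers. For the share of ribosomal RNA they ranged from -0.897 to 2.03 percentage points and for genes with a count from -453.5 to 105.5. At 3442913 to 4788094 counts, genes under 1 CPM rest on few counts.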

Other observations

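Red blood cell, conceptus trophoblast and smooth muscle markers in GE summed to 3.18 to 64.3, 19.7 to 34.6 and 78.2 to 269.9 CPM over the 7 libraries, and no difference between pregnant and cyclic gilts was detected (exact permutation p = 0.686, 0.429 and 0.743, with 0.0286 as the smallest p the design allows). The trophoblast sum was mostly DAB2, at 19.2 to 34.4 CPM, while CYP19A1, CYP17A1, IL1B2, IFNG, CDX2 and TFAP2C were at 0 in every library. GATA3 had counts of 0, 2, 2 and 0 in cyclic and 8, 1 and 3 in pregnant GE. CYP11A1 had 0 in each cyclic gilt and 1, 0 and 2 in PG139, PG39 and PG43. PAG6 had its only count, 1, in PG43. In the other direction, KRT5 had 1 count in each of CG128 and CG78 and ELF5 had 1 in CG42. On the joint scale, the 2 trophoblast markers kept there summed on average to 343 CPM in cyclic S. The trophoblast sum is therefore no measure of conceptus RNA in GE. Of the 14 epithelial markers, 3 were higher and 3 lower in each pregnant gilt than in each cyclic gilt. The 3 higher were CDH1, ST14 and the DEG EHF. Their means were 391 and 632, 35.4 and 63.3 and 59.0 and 149 CPM in cyclic and pregnant GE. The 3 lower were keratins of simple epithelia, KRT8, KRT18 and KRT19, none of them called. The keratin KRT7 overlapped, at 3.21, 8.47, 5.98 and 2.33 CPM in cyclic and 0.424, 1.68 and 13.6 CPM in pregnant GE. KRT8 was at 369, 364, 404 and 281 CPM in cyclic and 142, 149.6 and 225 CPM in pregnant GE, KRT18 at 82.96, 99.2, 97.7 and 89.01 CPM in cyclic and 40.03, 49.3 and 58.7 CPM in pregnant GE and KRT19 at 391, 269.6, 379 and 181 CPM in cyclic and 75.4, 107 and 138.7 CPM in pregnant GE (adjusted p = 0.0566, 0.0478 and 0.0582), while 23.0% of all detectable genes had groups without overlap.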
